A study of Mus musculus with 9 samples.

Results

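The carbonic anhydrases described here are 9 genes, Car2, Car3, Car4, Car5b, Car8, Car9, Car12, Car13 and Car14, taken by symbol from a table of 41761 genes that holds 16 carbonic anhydrase rows in all. They were chosen by name with earlier FPKM levels and dose differences of the same table in view, so the differences between doses below describe these genes and are no independent evidence about the family. RNA came from mouse stromal cells of inguinal white adipose tissue, the subcutaneous fat pad of the groin, taken through white adipocyte differentiation with sodium alginate, a polysaccharide salt, at 0, 50 or 100 µM, in 3 libraries a dose (9 libraries). All cells were primary cells labelled as wild type C57 and as mature white adipocytes. Per the treatment protocol, every dose, 0 µM included, was induced with rosiglitazone (1 µM), dexamethasone (1 µM), insulin (1 µg/ml) and the phosphodiesterase inhibitor IBMX (0.5 mM), and was then kept on insulin and rosiglitazone. The design text leaves rosiglitazone out. The 100 µM libraries carry titles naming 50 µM, but both the treatment label and the library name give 100 µM, and these were followed. RNA was collected on day 7 by the protocol, or on day 6 by the titles. Separate cultures or animals are not named for the libraries of a dose, so a p-value reflects library-to-library spread that may be technical.

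Carbonic anhydrases are mostly zinc enzymes that convert carbon dioxide and water into bicarbonate and a proton, and back. Cytosolic forms buffer the cell and feed bicarbonate to carboxylases, the mitochondrial forms supply bicarbonate inside the matrix, and membrane-bound forms act on the outer face of the cell. Some relatives have lost the catalytic site. In fat, bicarbonate is a substrate of acetyl-CoA carboxylase and pyruvate carboxylase, and Car3 is known as one of the most abundant soluble proteins of adipocytes.

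The libraries held 14314663 to 14583502 reads without alginate, 15359348 to 16523540 with 50 µM and 14019672 to 17094467 with 100 µM, as rebuilt from the deposited FPKM values (fragments per kilobase of gene, relative to library depth). The 15 mature adipocyte markers were all measured, led by Fabp4 at 2601 ± 76.2 FPKM at 0 µM, 2790 ± 237 at 50 µM and 3633 ± 191 at 100 µM (SD, n = 3 each). Their summed level lay between 7563 and 7796 FPKM at 0 µM, between 8321 and 8714 at 50 µM and between 11428 and 12056 at 100 µM, and all 15 were higher at 100 µM than at 0 µM (limma, adjusted p below 0.05). Progenitor markers were still present, with 1175 to 1237 FPKM in sum without alginate, 1017 to 1158 with 50 µM and 730 to 823 with 100 µM, and 9 of 11 tested were lower at 100 µM than at 0 µM. Of all 12635 genes tested, limma called 18.3% higher and 15.6% lower in that comparison. The carbonic anhydrase differences below stand beside this shift in marker levels, whose part in them was not tested. In these bulk libraries, a change in the share of one cell type and a change in RNA per cell cannot be told apart. The third 50 µM library stood apart on the second principal component of all genes (-19.1, against -4.62 to 11.4 for the others).

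Levels of the 9 genes differed widely. In mean FPKM at 0 µM they ran in the order Car3, Car5b, Car2, Car13, Car4, Car9, Car8, Car14 and Car12. Car3, Car5b, Car2 and Car13 were at or above 1 FPKM in all 9 libraries. Car8, Car9, Car12 and Car14 were below 1 FPKM in all 9 libraries. Car4 lay between these groups and missed 1 FPKM in the first 100 µM library alone. Just above that line was thus Car4, from 0.946 to 3.04 FPKM, and just below it was Car9, from 0.470 to 0.992 FPKM. A gene was tested where it reached 1 FPKM in at least 3 libraries, which left 5 of the 9 genes. Neighbours in the order were not always separate, since the ranges of Car5b and Car2 overlapped at 50 and 100 µM but not at 0 µM. Among all genes of the table, Car3 ranked 72 by mean FPKM at 0 µM, 73 at 50 µM and 32 at 100 µM.

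**Figure D1:**
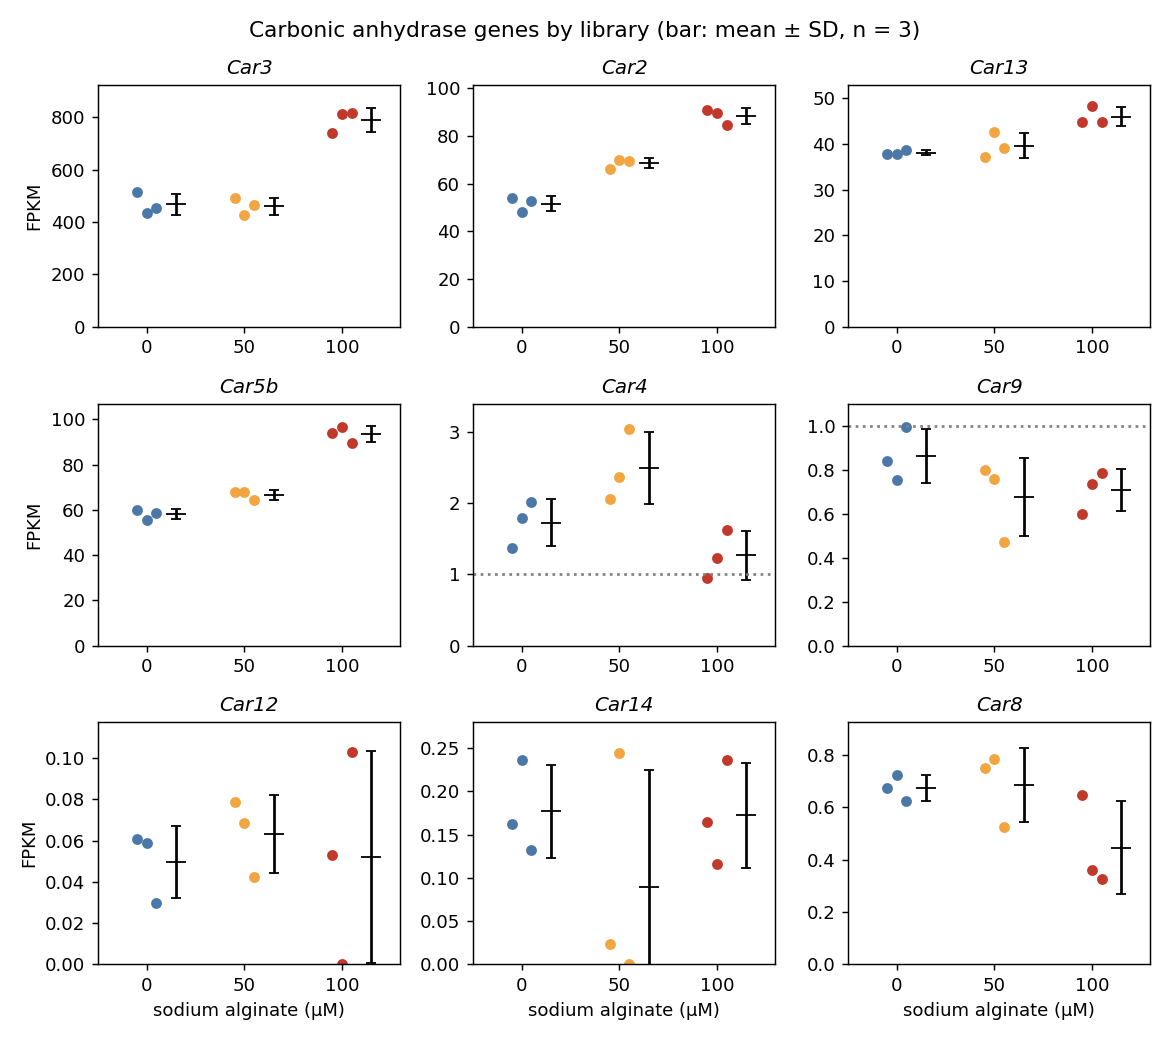
FPKM of the 9 carbonic anhydrases in each of the 9 libraries, by alginate dose in µM, with a panel and a linear scale for each gene. Points are libraries, bars give the mean and SD of 3 and end at 0, and a dotted line marks 1 FPKM in the panels of Car4 and Car9. Car3, Car2, Car13 and Car5b sit highest at 100 µM with no overlap with the other doses, and Car4 sits highest at 50 µM.

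Promoter sequence was available for 5 of the 9 genes, Car5b, Car4, Car9, Car12 and Car14, from RefSeq on GRCm38.p6, as 250 bases before and 50 after each start site. Car5b is shown because it is the only gene higher at 100 µM with an entry, Car4 because it moved the other way between 50 and 100 µM, and Car9 because it is a textbook target of hypoxia-inducible factors. Capitals mark matches, on either strand, to ACGTG (the core of the hypoxia response element), AGGTCA (a nuclear receptor element), GGGCGG (a GC box) or TATAAA, and lower case is the rest. The Car5b window is chrX:164027961-164028260 on the minus strand, Car4 is chr11:84957504-84957803 on the plus strand, and Car9 is chr4:43506776-43507075 on the plus strand.
Car5b: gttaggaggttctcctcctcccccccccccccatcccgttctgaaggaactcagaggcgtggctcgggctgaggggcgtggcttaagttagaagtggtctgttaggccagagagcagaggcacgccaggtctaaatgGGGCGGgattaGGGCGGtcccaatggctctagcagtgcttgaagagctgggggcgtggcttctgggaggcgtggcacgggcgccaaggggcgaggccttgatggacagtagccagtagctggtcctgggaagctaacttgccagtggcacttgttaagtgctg
Car4: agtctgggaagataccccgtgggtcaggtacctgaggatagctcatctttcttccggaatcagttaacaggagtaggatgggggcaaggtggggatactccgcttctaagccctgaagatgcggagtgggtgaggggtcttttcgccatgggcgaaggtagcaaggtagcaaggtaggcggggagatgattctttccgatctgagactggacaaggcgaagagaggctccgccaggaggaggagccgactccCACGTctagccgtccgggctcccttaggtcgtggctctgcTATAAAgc
Car9: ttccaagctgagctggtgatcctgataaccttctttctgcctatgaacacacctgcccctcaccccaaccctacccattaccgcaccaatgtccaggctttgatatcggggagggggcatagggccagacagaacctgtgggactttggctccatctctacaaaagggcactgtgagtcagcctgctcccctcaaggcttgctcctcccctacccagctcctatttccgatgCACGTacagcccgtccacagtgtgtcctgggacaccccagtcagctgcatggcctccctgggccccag

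Car5b had 2 GGGCGG matches, whose first bases lay at -113 and -102 from the start site, and no match to the other 3 motifs. In Car4, ACGTG matched on the opposite strand at position 3, where the printed strand reads CACGT, and TATAAA matched at position 43, downstream of the start site. In Car9, 1 ACGTG match lay on the opposite strand at -18. Car14 also had 1 ACGTG match, at -7, and Car12 had 1 GGGCGG match, at -35, both on the opposite strand. None of the 5 windows held AGGTCA. Of 32851 promoter windows of the same length, 19.6% held ACGTG, 16.3% AGGTCA, 35.7% GGGCGG and 13.6% TATAAA, and a match is a run of letters, not a binding site.

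Of the cytosolic genes, Car3, an isoform with low hydration activity that is typical of fat, liver and slow muscle, was at 512, 436 and 455 FPKM without alginate, 489.9, 425 and 466 at 50 µM, and 738, 813 and 817 at 100 µM. The 3 libraries at 100 µM were above all others, and the 50 µM libraries lay in the range of the 0 µM ones apart from the second, which was the lowest of all. Car3 (chromosome 3, 12810801 to 12819811, plus strand) rose at 100 µM, to 789 ± 44.5 FPKM, against 468 ± 39.9 FPKM at 0 µM (SD, n = 3 each), which is 1.69-fold. On the log2(FPKM + 1) scale used for every difference below, this was 0.76 ± 0.077 (SE, limma, adjusted p = 0.000114). Against 50 µM, Car3 rose by 0.78 ± 0.077 (adjusted p = 0.000329, limma), whereas 50 µM against 0 µM gave -0.02 ± 0.077 (adjusted p = 0.937, limma, 95% interval -0.20 to 0.15). The sign of that last value turned to 0.04 without the first 0 µM library and to 0.03 without the second 50 µM library.

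Car2, the high-activity cytosolic enzyme known from red cells and osteoclasts, was at 54.1, 48.1 and 52.5 FPKM without alginate, 66.3, 69.9 and 69.6 at 50 µM, and 90.8, 89.6 and 84.6 at 100 µM. Its 3 doses formed 3 separate steps with no overlap. Car2 (chromosome 3, 12837470 to 12853700, plus strand) rose at 100 µM, to 88.3 ± 3.31 FPKM against 51.6 ± 3.11 at 0 µM (SD, n = 3 each), by 0.77 ± 0.052 (adjusted p = 1.85e-05, limma). It was the only one of the 5 tested genes called at 50 µM against 0 µM, by 0.41 ± 0.052 (adjusted p = 0.0253, limma), with 68.6 ± 2.01 FPKM at 50 µM. That call depended on single libraries, with an adjusted p of 0.101, 0.0977 or 0.0833 without 0 µM library 1, 2 or 3, and of 0.0985 or 0.0615 without 50 µM library 2 or 3 (limma), while the log2 difference stayed between 0.36 and 0.44 in every setting run. From 50 to 100 µM, Car2 differed by a further 0.36 ± 0.052 (adjusted p = 0.00137, limma).

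Car13, a widely expressed cytosolic enzyme, was at 37.8, 37.8 and 38.7 FPKM without alginate, 37.1, 42.6 and 39.0 at 50 µM, and 44.7, 48.4 and 44.7 at 100 µM. The 100 µM libraries were above all others, and the 50 µM libraries spread to both sides of the 0 µM ones. Car13 (chromosome 3, 12577262 to 12598515, plus strand) rose at 100 µM by 0.26 ± 0.055 against 0 µM (adjusted p = 0.00558, limma), or 1.21-fold in mean FPKM. Against 50 µM it rose by 0.21 ± 0.055 (adjusted p = 0.0226, limma). The first of these was 0.19 after rescaling to a common sum (adjusted p = 0.0363, limma) or quantile normalization (0.0328). With the library factor removed it was 0.20 (adjusted p = 0.0222, limma). The second of these calls was lost without 50 µM library 1 (adjusted p = 0.0724), 50 µM library 3 (0.0628) or 100 µM library 2 (0.0805), and under other settings, with an adjusted p (limma) of 0.109 after rescaling to a common sum, 0.0841 after quantile normalization, 0.0910 with the library factor removed, 0.0703 with voom and 0.0545 in a fit of these doses alone. At 50 µM against 0 µM Car13 gave 0.05 ± 0.055 (adjusted p = 0.739, limma, 95% interval -0.07 to 0.18).

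Car13, Car3 and Car2 lie together within 276439 bases of chromosome 3 on the C57BL/6NJ strain assembly, whose coordinates the table uses. The span holds 6 rows. Besides these 3 genes they are Car1, an erythroid isoform on the minus strand that did not exceed 0.214 FPKM, and a pair of pseudogene rows at 0 in every library. Car3 and Car2 are 17658 bases apart on the same strand. Levels of these neighbours were far apart, at 468 ± 39.9 FPKM for Car3, 51.6 ± 3.11 for Car2 and 38.1 ± 0.532 for Car13 at 0 µM (SD, n = 3 each).

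Markers of muscle, red cells and osteoclasts, in which these isoforms are also known, were measured in the same libraries. Of 10 skeletal muscle markers, 7 stayed below 1 FPKM in every library, Pax7 was at 0 and the sum was 4.26 to 5.89 FPKM without alginate, 4.41 to 5.71 with 50 µM and 3.20 to 4.33 with 100 µM. The 6 erythroid markers found were all below 1 FPKM, with Hba-a1 at 0. Osteoclast markers summed to 47.6 to 50.2 FPKM without alginate, 36.4 to 43.0 with 50 µM and 32.7 to 34.2 with 100 µM. Most of that sum was Ctsk, which averaged 39.2, 30.1 and 26.3 FPKM at these doses. Of the 7 osteoclast markers, 3 stayed below 1 FPKM in every library, with Dcstamp at 0. Of 4 osteoclast markers tested, 2 fell at 100 µM against 0 µM and none rose. Lower at 100 µM than at 0 µM were also 6 of 8 macrophage markers tested and 8 of 10 endothelial (5 without 0 µM library 2 or 3). So were 1 of 3 Schwann cell and 1 of 1 mesothelial or epithelial markers, with none higher in these lists. That last marker was Krt19, while 8 of the 9 mesothelial or epithelial markers stayed below 1 FPKM in every library. Of 7 smooth muscle markers 2 were higher and 2 lower. Over all genes tested, 15.6% were lower and 18.3% higher.

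Car5b, the mitochondrial matrix enzyme found in many tissues, was second in mean FPKM to Car3 at 0 and 100 µM, and stood below Car2 too at 50 µM. It was at 59.9, 55.6 and 58.6 FPKM without alginate, 67.8, 67.9 and 64.1 at 50 µM, and 94.0, 96.6 and 89.7 at 100 µM. As for Car2, the 3 doses did not overlap. Car5b (chromosome X, 166804073 to 166856981, minus strand) rose at 100 µM, to 93.4 ± 3.49 FPKM against 58.0 ± 2.18 at 0 µM (SD, n = 3 each), by 0.68 ± 0.046 (adjusted p = 1.85e-05, limma). Against 50 µM the difference was 0.48 ± 0.046 (adjusted p = 0.000301, limma). At 50 µM against 0 µM it was 0.20 ± 0.046, which missed the threshold (adjusted p = 0.0907, limma) except with voom on rebuilt reads (adjusted p = 0.0249, voom in limma). Car5a, the liver isoform of the same compartment, had 0 reads in all 9 libraries.

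Car4, an enzyme tethered to the outer membrane by a lipid anchor and known from capillary endothelium, was at 1.37, 1.80 and 2.02 FPKM without alginate, 2.06, 2.38 and 3.04 at 50 µM, and 0.946, 1.24 and 1.63 at 100 µM. These values rest on 31 to 94 reads per library. The 50 µM libraries were above all others, and the 100 µM libraries overlapped with those at 0 µM. Car4 (chromosome 11, 89051347 to 89059605, plus strand) fell at 100 µM, to 1.27 ± 0.344 FPKM against 2.49 ± 0.505 at 50 µM (SD, n = 3 each), with a log2 difference of -0.62 ± 0.150 (adjusted p = 0.0159, limma). Without the third 50 µM library, the one apart from the rest, the adjusted p was 0.0553 (limma). Because Car4 is low, the pseudocount matters to its size, and the same difference was -0.93 with a pseudocount of 0.1 and -1.05 with voom. Against 0 µM, the difference at 100 µM was -0.27 ± 0.150 (adjusted p = 0.204, limma), and it was -0.16 without 100 µM library 1, -0.43 with a pseudocount of 0.1 and -0.54 with voom, none of them called. With the replicate number as a block, its adjusted p was 0.0477 (limma). At 50 µM against 0 µM the difference was 0.35 ± 0.150 (adjusted p = 0.327, limma). Endothelial markers also fell at 100 µM against 50 µM, 7 of 10 tested and none higher (3 when library 2 at 100 µM or library 2 or 3 at 50 µM was left out). Over all genes tested, 12.0% were lower in that comparison. The summed level of the endothelial markers was 146 to 149 FPKM at 100 µM against 166 to 179 at 50 µM. At 50 µM against 0 µM, where Car4 was higher in every library, none of the 10 was called (median log2 difference -0.08). Their sum at 0 µM was 170 to 186 FPKM. The part of these markers in the Car4 differences was not tested.

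The remaining members were under the test's filter and are given as values. Car9, a transmembrane enzyme with an extracellular catalytic domain that is best known as a hypoxia-induced gene, was at 0.838, 0.753 and 0.992 FPKM without alginate, 0.799, 0.756 and 0.470 at 50 µM, and 0.599, 0.735 and 0.783 at 100 µM, from 17 to 34 reads per library. The doses overlapped. Car9 (chromosome 4, 43186109 to 43196332, plus strand) shares its position with the antisense row Gm12454, which averaged 0.607 FPKM, and with no strand setting given, reads of these rows cannot be told apart.

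Car8, a related protein without catalytic activity that binds the inositol trisphosphate receptor, was at 0.675, 0.723 and 0.624 FPKM without alginate, 0.750, 0.786 and 0.525 at 50 µM, and 0.649, 0.360 and 0.327 at 100 µM. Of the 100 µM libraries 2 were below all others, while the first lay within the range at 0 µM. Car8 rested on 19 to 49 reads per library. In the fit with no filter it was not called at 100 µM against 0 µM (-0.22, adjusted p = 0.245, limma). Nor was it called against 50 µM (-0.23, adjusted p = 0.263, limma). Car14, a transmembrane enzyme, ranged from 0.132 to 0.236 FPKM at 0 µM, from 0 to 0.245 at 50 µM and from 0.116 to 0.236 at 100 µM. Its reads numbered at most 10 in a library, and the 0 reads of the third 50 µM library allow up to 0.0751 FPKM (3 reads). Car14 overlaps Aph1a on the opposite strand, a gene at 12.2 FPKM on average. Car12, another transmembrane enzyme, did not exceed 0.103 FPKM, with at most 7 reads in a library, and its 0 reads in the second 100 µM library allow up to 0.0487 FPKM. No difference between doses was detectable at this depth for Car12 or Car14, and these floors cover counting error only.

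Of the 5 members tested, 4 were called at 100 µM against 0 µM, where limma called 33.9% of the 12635 genes tested. All 4 were higher, as were 18.3% of all genes tested (2314 genes), and none was lower, as were 15.6% (1965 genes). That split shifted with the scaling, to 1630 higher and 2633 lower after rescaling to a common sum, 1731 and 2658 with the authors' library factor removed, and 1829 and 3028 with voom. At 50 µM against 0 µM, 1 of 5 was called and it was higher, against 0.791% called of all genes, 0.356% higher (45 genes) and 0.435% lower (55 genes), or 33 and 74 genes after quantile normalization. That background is unstable, since the 100 genes called became 12 with no filter, 208 with a filter of 5 FPKM and 362 with voom. By limma, 0 were called with the replicate block, in the fit of these groups alone, and on leaving out the first or second library at 0 µM or the second at 50 µM, although 1493 to 1837 genes were at an unadjusted p below 0.05 in these fits. Car2 itself was not called in 8 of the 21 settings. At 100 µM against 50 µM, 5 of 5 were called, 4 higher and 1 lower, against 25.1% of all genes, 13.2% higher (1663 genes) and 12.0% lower (1510 genes). Here rescaling to a common sum gave 1060 higher and 2031 lower, removal of the library factor 1102 and 2180, and voom 1228 and 2525. The members were named with these values known, so nothing is read from their share. The 3 comparisons share libraries and are not independent of each other.

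**Figure D2:**
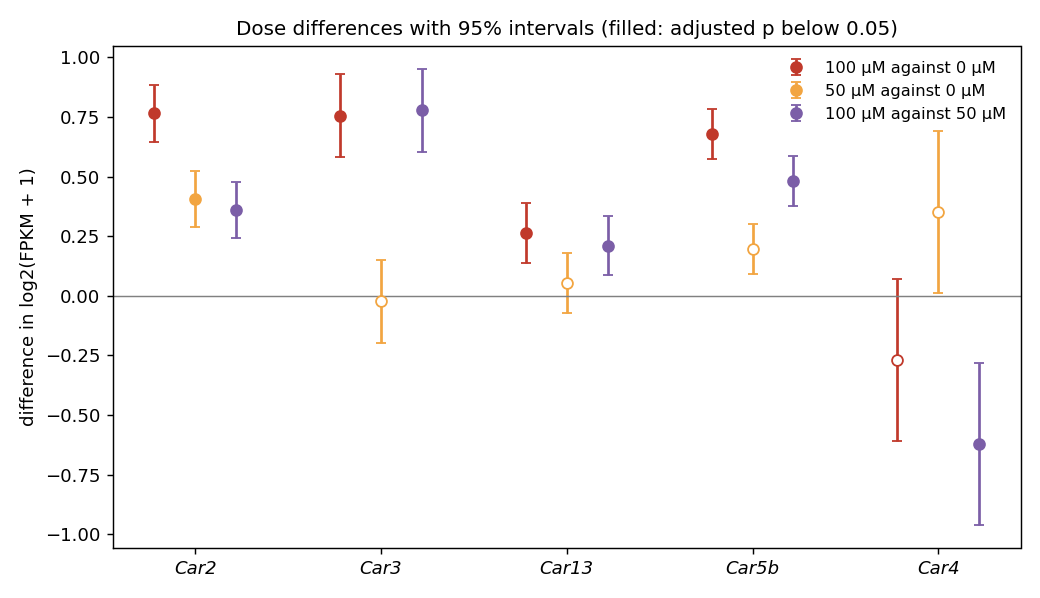
Log2 differences in log2(FPKM + 1) of the 5 tested carbonic anhydrases for each pair of doses, with 95% intervals from the limma fit across all 12635 genes and 3 libraries a dose. Car3 lies at 0.76 for 100 µM against 0 µM and at -0.02 for 50 µM against 0 µM, whereas Car2 lies at 0.77 and 0.41.

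The mix of members was described by the share of Car3 and by ratios to Car3, the ratios chosen after the values were seen. The 9 genes summed to 619 ± 44.1 FPKM at 0 µM, 639 ± 28.0 at 50 µM and 1020 ± 43.5 at 100 µM (SD, n = 3 each). Car3 made up 76.8%, 75.0% and 74.8% of that sum at 0 µM, 73.7%, 69.7% and 72.5% at 50 µM, and 76.1%, 77.4% and 78.6% at 100 µM. All 3 libraries at 50 µM were thus below every other library. The difference in this share was -3.58 percentage points at 50 µM against 0 µM and 5.43 at 100 µM against 50 µM, each at the smallest p of 0.1 that 3 against 3 libraries can give (exact permutation test, two-sided), and 1.85 at 100 µM against 0 µM (exact p = 0.2). The last of these was 1.23 without 100 µM library 3 and 2.50 without 100 µM library 1. These are part of 21 exact tests, over which 0.1 becomes 0.14 after Benjamini-Hochberg adjustment, so none can pass 0.05.

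The log2 ratio of Car2 to Car3 had means of -3.18 without alginate, -2.74 with 50 µM and -3.16 with 100 µM, and that of Car5b to Car3 averaged -3.01, -2.79 and -3.08 at the same doses. Both ratios were higher in every 50 µM library than in any 0 µM or 100 µM library, by 0.44 and 0.22 against 0 µM (exact permutation p = 0.1 each, two-sided). At 100 µM against 0 µM they differed by 0.02 (exact p = 1) and -0.07 (exact p = 0.5). The ratio of Car13 to Car3 had another course, with -3.62 at 0 µM, -3.54 at 50 µM and -4.10 at 100 µM, and was lower in every 100 µM library than in any other (-0.49 against 0 µM and -0.56 against 50 µM, exact permutation p = 0.1 each, two-sided).

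**Figure D3:**
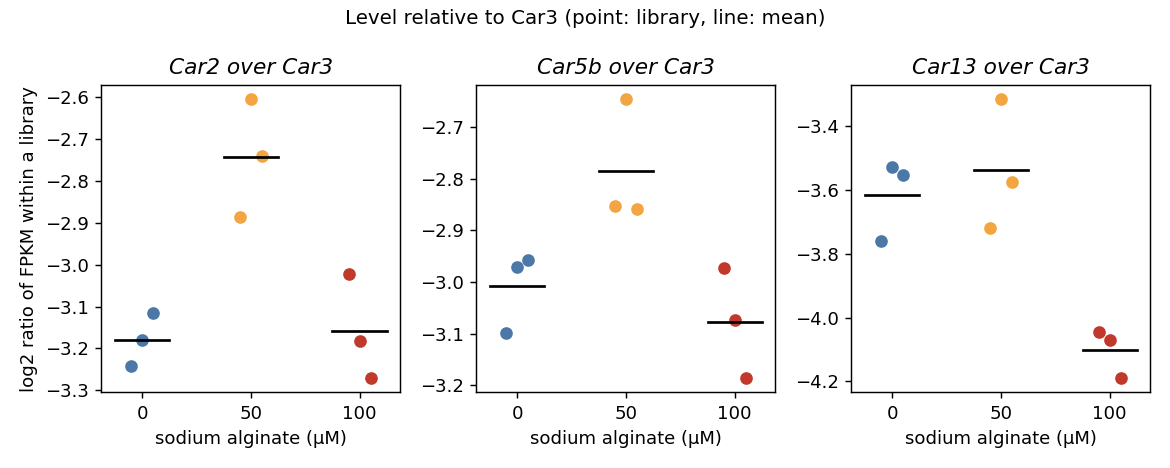
Log2 ratio of FPKM to Car3 for Car2, Car5b and Car13 in each library, by alginate dose in µM, with points for libraries and lines for the mean of 3. The 50 µM libraries are the highest for Car2 and Car5b, and the 100 µM libraries are the lowest for Car13.

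For each member called at 100 µM against 0 µM, the tested protein-coding genes with the most similar course were found by the root mean square difference in log2(FPKM + 1) over the 9 libraries, each gene centred on its own mean. The closest to Car5b were Sucla2 (0.016), Hadhb (0.029) and Hsd17b12 (0.031), and Sucla2 had 65.6, 74.7 and 105 FPKM on average at 0, 50 and 100 µM. Those closest to Car2 were Lipe (0.049), Acads (0.060) and Pla2g16 (0.062), and Lipe, one of the adipocyte markers, averaged 126, 158 and 209 FPKM. Next to Car3 were Coq8a (0.061) and Acadm (0.085), and next to Car13 were Gtf2f2 (0.030), Vkorc1l1 (0.039) and Ranbp9 (0.039). For scale, the members themselves deviated from their own means by 0.29 for Car5b, 0.32 for Car2, 0.37 for Car3 and 0.13 for Car13.

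The other carbonic anhydrase rows, Car1, Car5a, Car6, Car7, Car10, Car11 and Car15, were low. Only Car11, a relative without catalytic activity, was tested, at 2.19 ± 0.699 FPKM at 0 µM, 1.34 ± 0.060 at 50 µM and 2.05 ± 0.192 at 100 µM (SD, n = 3 each), and it was called in none of the 3 comparisons (adjusted p = 0.826 at 100 µM against 0 µM, 0.194 at 50 µM against 0 µM and 0.0771 at 100 µM against 50 µM, limma). Of the rest, only Car15 passed 1 FPKM in any library, at 1.04 in the third 100 µM library.

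Genes that use or move what the enzymes make were read from lists. Of 10 listed genes that use bicarbonate, the biotin ligase of the carboxylases included, 8 were found by symbol and 7 were tested. These were Acacb, Pcca, Pccb, Mccc1, Mccc2, the biotin ligase Hlcs and Cad, which is no biotin-dependent carboxylase. Pyruvate carboxylase and any other acetyl-CoA carboxylase were not among them. Of the 7, 5 rose at 100 µM against 0 µM, with none lower (1 with voom or the library factor removed). Their median log2 difference was 0.47 (0.39 to 0.51 over the settings run), beside 0.01 over all genes tested. In that comparison 18.3% of all genes tested were called higher and 15.6% lower. Acacb, the mitochondrial-surface acetyl-CoA carboxylase, rose to 34.0 ± 2.56 FPKM at 100 µM against 15.1 ± 2.30 at 0 µM (SD, n = 3 each; log2 difference 1.13, adjusted p = 8.67e-05, limma). Pcca and Pccb, the subunits of propionyl-CoA carboxylase, rose by 0.38 and 0.53, and Mccc2, a subunit of methylcrotonoyl-CoA carboxylase, by 0.49. At 50 µM against 0 µM none of the 7 was called (limma). At 100 µM against 50 µM 5 rose and none fell, beside 13.2% higher and 12.0% lower over all genes tested.

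Of 20 bicarbonate transporters of the Slc4 and Slc26 families, 7 were tested and none was called at 100 µM against 0 µM (median 0.08), and Slc4a4, a sodium bicarbonate cotransporter, was the 1 called at 100 µM against 50 µM (0.24, adjusted p = 0.0460, limma). That call held in 7 of 21 settings. It was lost with the other scalings of the values (a common sum, median ratios, quantile normalization or the authors' factor removed), with no filter, with the replicate block and in the fit of these groups alone, and without any 1 of the 50 µM libraries, without library 2 or 3 at 100 µM and without library 1 or 3 at 0 µM. Among sodium proton exchangers and their partners, Chp1, a protein that binds them, rose by 0.42 at 100 µM against 0 µM, and Slc9a3r2, a scaffold for such exchangers, fell by 0.24 on the log2 scale, a call lost with no filter and without the first or second 0 µM library or the second 100 µM library. Of 4 genes of proton-linked monocarboxylate transport, Slc16a1 rose by 0.28, while Slc16a3, which exports lactate, fell by 0.81 and Emb, a partner protein of these transporters, by 0.53. Aqp1, a water channel that also passes carbon dioxide, was the 1 called of 2 tested among carbon dioxide sensors and channels, at 6.83 ± 0.570 FPKM at 100 µM against 14.4 ± 2.23 at 0 µM (SD, n = 3 each; -0.97, adjusted p = 0.000903, limma).

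Car9 and Car12 are known targets of hypoxia-inducible factors, and 17 other genes of that kind or of their control were tested. Of these, 3 rose and 10 fell at 100 µM against 0 µM, with a median of -0.23, beside 0.01 over all genes tested. In that comparison 18.3% of all genes tested were called higher and 15.6% lower. Over all settings that tested all 17, 1 to 3 rose and 9 to 11 fell. Car9 averaged 0.705 ± 0.096 FPKM at 100 µM and 0.861 ± 0.121 at 0 µM (SD, n = 3 each) with overlapping libraries. The genes named for this comparison are the 4 called with the smallest p, and all are among the 10 that fell. P4ha1 and P4ha2, which hydroxylate collagen, fell by 0.54 and 0.74 on the log2 scale, Ndufa4l2, a mitochondrial protein, fell by 1.29, and Hif1a itself fell by 0.49. At 50 µM against 0 µM only Adm was called, with a log2 difference of -0.39 (adjusted p = 0.0366, limma), a call that held in 11 of 21 settings and was lost with no filter, with the replicate block, in the fit of these groups alone and without any 1 of the libraries at 0 or 50 µM or without the second at 100 µM. Of the 17, at 100 µM against 50 µM 1 rose and 8 fell, beside 13.2% higher and 12.0% lower over all genes tested.

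**Figure D4:**
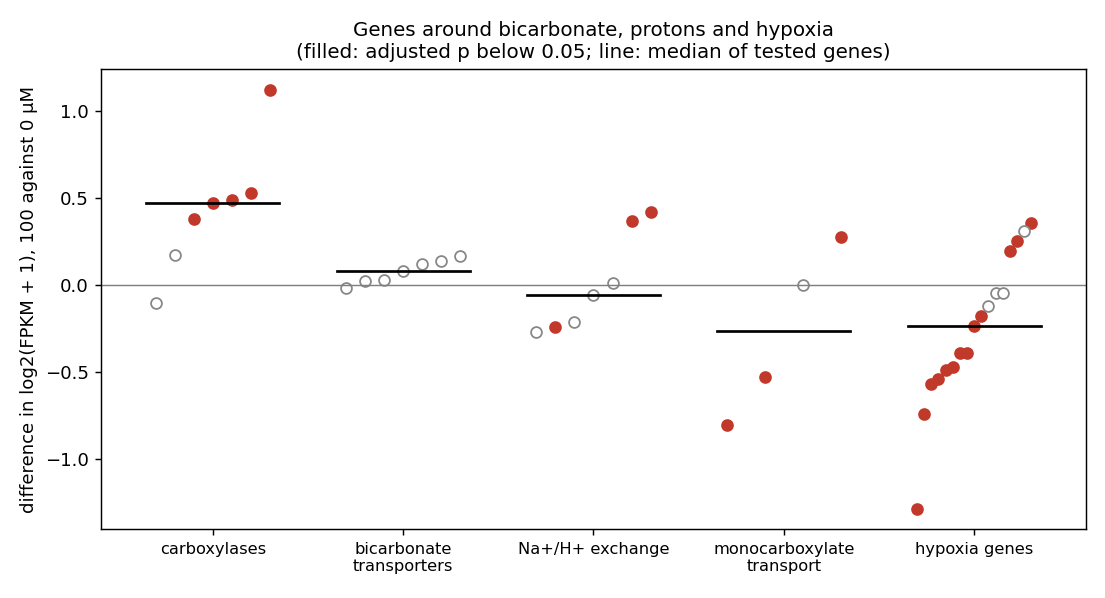
Log2 differences at 100 µM against 0 µM of the tested genes in several lists, from the limma fit on log2(FPKM + 1). The lists are carboxylases, bicarbonate transporters, sodium proton exchange, monocarboxylate transport and hypoxia genes. Carbon dioxide sensors and channels are not drawn. There is 1 point per gene, filled where the adjusted p is below 0.05, and a line at the median of the tested genes. The carboxylases lie mostly above 0, with a median of 0.47, and the hypoxia genes mostly below, with a median of -0.23.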

How the data were processed

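RNA was sequenced in 9 libraries, 3 at each alginate dose, grouped by the treatment label and library name. The authors deposited 1 table of FPKM values per gene, per the file headers. Builds named in the submitters' processing notes are GRCm38 and mm10, but the table's gene identifiers belong to the C57BL/6NJ assembly, and its coordinates were not converted. For aligner, counter and strand, the setting is not given in the sources used. The deposited FPKM values times gene length came out as whole reads within 0.01 in 100% of values, and the authors' scaling totals were 1.01 to 1.03 times the reads at 0 and 50 µM and 0.969 to 0.976 times at 100 µM.

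The 12635 genes that reached 1 FPKM in 3 or more libraries were tested with limma 3.58.1 (R 4.3.3) on log2(FPKM + 1), with a trend and 1 mean per dose over all 9 libraries, and p-values were adjusted by Benjamini-Hochberg over all of them with a threshold of 0.05. A fold change on this scale understates that of low genes. Sums, shares and ratios were compared by exact permutation tests (scipy 1.17.1). The limma step was run on simulated reads with a fixed spread between libraries and few changed genes. That setting differs from these data, so the run does not test the calls made here. The members, lists and named genes were chosen with earlier results of these data known. Named were all 9 members, from each pathway list at most the 4 called genes with the smallest p at 100 µM against 0 µM, from marker lists at most the 2 highest genes, and the 3 genes nearest to each called member, with some genes not reported here. Adm, called at 50 µM, Slc4a4, called at 100 µM against 50 µM, and the markers named at 0 were chosen after their values were seen. Alternatives were other pseudocounts, filters and scalings, voom on rebuilt reads, a fit of the compared doses alone, a replicate block and each library left out.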

Additional observations from a re-analysis of the deposited data

How the results depend on the processing

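The count of genes called at 50 µM against 0 µM, 100 with limma, was the least stable result. It was 12 with no filter, 208 with a filter of 5 FPKM, 362 with voom on rebuilt reads, 0 in a fit of the compared doses alone (1837 genes at unadjusted p below 0.05) and 0 with the replicate block (1603 at unadjusted p below 0.05), and it ranged from 0 to 112 when a library was left out. It was 0 without the first or second library at 0 µM or the second at 50 µM (1493, 1547 and 1636 genes at unadjusted p below 0.05), 1 without 0 µM library 3, and 42, 13 and 53 without 50 µM library 1, 50 µM library 3 and 100 µM library 2. The counts at 100 µM against 0 µM and against 50 µM stayed between 3414 and 4857 and between 2277 and 3753. Over all genes, replicate numbers showed no sign of pairing. Correlations of same-numbered libraries lay between -0.094 and 0.041, and those of differently numbered ones between -0.081 and 0.098. These values cannot exclude shared cultures or batches, and Car4 rose with the replicate number at every dose. With the number as a block, 3808 and 2646 genes were called at 100 µM against 0 µM and against 50 µM, Car2 at 50 µM against 0 µM had an adjusted p of 0.0651, and Car4 at 100 µM against 0 µM one of 0.0477 (limma). Car2 at 50 µM against 0 µM also missed the threshold with no filter (0.0576) and in a fit of the compared doses alone (0.0593), within a range of 0.000409 to 0.101 over all settings run. Calls of Car2, Car3 and Car5b at 100 µM against either dose and of Car13 against 0 µM held in all 21 settings. Their sizes moved with the setting. At 100 µM against 0 µM the log2 difference ranged from 0.65 to 0.80 for Car2, 0.66 to 0.82 for Car3 and 0.56 to 0.71 for Car5b. Each of these was lowest with quantile normalization. Signs turned, each time for a difference that missed its threshold, for Car3 at 50 µM against 0 µM (0.04 without 0 µM library 1 and 0.03 without 50 µM library 2, in a range of -0.072 to 0.045), for the Car2 to Car3 ratio at 100 µM against 0 µM (-0.048 without 100 µM library 1 and -0.012 without 0 µM library 1, in a range of -0.048 to 0.077) and for the Car13 to Car3 ratio at 50 µM against 0 µM (-0.033 without 50 µM library 2, in a range of -0.033 to 0.17). The median over all genes at 100 µM against 0 µM, 0.01, was -0.06 after rescaling to a common sum or with voom. The ratios, their alternatives and the counts of the gene lists over settings were added after seeing the data. The cause of these shifts was not tested. Depth limits Car4 and the 4 members under 1 FPKM, and the counts of reads cover counting error only.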
